A study of Mus musculus with 89 samples.

Results

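The 7 genes described here, of the Eph and ephrin families, were followed along the crypt-villus axis of the mouse small intestine. They are the receptors Ephb2, Ephb3, Ephb4 and Epha2 and the ligands Efna1, Efnb1 and Efnb2. They were taken by name, 7 of the 29100 genes found in the table of clumps or in the table of single cells, and all 7 were present in both. Clumps are small groups of attached epithelial cells, left together by a mild EDTA dissociation of the jejunum. A sort on DNA content gave pairs (4n) and, from mice 1, 4 and 5, also larger clumps (above 4n). Single cells came from a longer warm EDTA step with repeated shaking of the same tissue. The animals were untreated male C57BL/6 mice, labelled 3 months old except for 3 plates of mouse 2 of the single cells, which are labelled 4 months. Whether those plates come from the same animal as the other plates of mouse 2 cannot be told from the labels, and they were kept with them as 1 replicate. Clumps came from mice 1 to 5 and cells from mice 1 to 4 of a separate numbering, so that mouse 1 of the clumps is not taken as mouse 1 of the cells.

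Eph receptors are receptor tyrosine kinases that bind ephrins on the surface of a neighboring cell, and both the receptor-bearing and the ligand-bearing cell can respond. The ephrin-A ligands are anchored in the membrane by a lipid tail and bind mainly EphA receptors, whereas the ephrin-B ligands span the membrane and bind mainly EphB receptors. In the intestine, EphB receptors of crypt cells are known as targets of Wnt signaling and, with ephrin-B ligands, as cues that keep cell types in their place along the axis.

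Transcripts were counted as unique molecular identifiers (UMIs), each standing for 1 captured RNA molecule. The mouse was the replicate. Clumps were placed in 3 zones by enterocyte landmark genes, none of which is an Eph or ephrin gene. This gave 3529 crypt clumps with a median of 4424 UMIs, 1550 mid-villus clumps with a median of 1872 and 804 villus tip clumps with a median of 1354. UMIs were then summed per mouse and zone and are given as CPM, the count of a gene per 1000000 UMIs of its sum. Crypt clumps of mouse 4 held 19001409 of the 26156437 crypt UMIs. All tip clumps together held 1575447 UMIs, so that 3 UMIs, the limit that a count of 0 allows, stand for 1.90 CPM at the tip and for 0.115 CPM in the crypt. This limit covers counting error only. The same 384 well barcodes recur on every plate of both tables, so wells were told apart by plate and barcode together.

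Markers of stem and dividing cells were highest in the zone called crypt, where they summed to 518 to 1370 CPM, against 63.8 to 202.5 in the mid-villus and 57.6 to 285 at the tip. Goblet cell markers summed to 3103 to 6601 CPM in the crypt and to 6767 to 27860 at the tip, without overlap. Paneth cell markers reached 18670 CPM in the crypt and 1153 at the tip. Enteroendocrine markers had medians of 99.5, 126.2 and 101.2 CPM from crypt to tip, with single mice up to 739.8, 347.8 and 119.6 CPM. Immune markers had medians of 8.37, 6.75 and 3.68 CPM, with single mice up to 295.7, 13.7 and 50.6 CPM. Fibroblast markers reached at most 37.9 CPM and endothelial markers at most 12.6 CPM in any mouse and zone. The part of these other cells in the results below was not tested, and in clumps fewer cells of a type and less RNA per cell cannot be told apart.

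Ephb2, an EphB receptor of crypt progenitors (GRCm38 chr4:136647539-136835988, minus strand), was highest in the crypt. Its levels there in mice 1 to 5 were 15.4, 11.4, 13.5, 42.2 and 16.3 CPM. In the mid-villus they were 0, 2.46, 2.48, 6.75 and 0 CPM. The 2 zones did not overlap, and every mouse had less in the mid-villus. Its mean was 19.8 ± 12.7 CPM in the crypt and 2.34 ± 2.76 in the mid-villus (SD, n = 5 mice), and edgeR's quasi-likelihood test gave a log2 change of -3.12 with a standard error of 0.72 (adjusted p = 0.00154). It passed in all 9 alternatives in which Ephb2 could be tested (adjusted p = 3.07e-06 to 0.00904), but of the fits that leave out 1 mouse these hold only those without mouse 4 and without mouse 5, since in the others it had too few UMIs to pass the filter on low counts. At the tip, Ephb2 was 0, 15.0, 0, 12.4 and 0 CPM, which overlaps the crypt. These tip values rest on 7 UMIs, of which 6 lay in 3 clumps of mouse 2 and 1 in mouse 4, against 902 UMIs in the crypt. The tip differed from the crypt by -1.74 (SE 0.83) on the log2 scale, which did not pass (edgeR, adjusted p = 0.0843), though it passed with DESeq2 size factors (-2.09, adjusted p = 0.0438), with scaling to total UMIs (-2.11, adjusted p = 0.0312) and with a block for the mouse (-1.43, adjusted p = 0.0448). The exact permutation test of the same CPM gave p = 0.0476, adjusted to 0.107, and its p was 0.0857 to 0.171 without mouse 1, 3, 4 or 5. Taken within mice, it gave p = 0.125. With each clump thinned to 500 UMIs, the direction turned, to a tip minus crypt difference of 4.923 CPM (exact permutation p = 0.897).

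Ephb3, the second EphB receptor of the crypt and known for its part in the position of Paneth cells (chr16:21204755-21223305, plus strand), was found in crypt clumps alone. It had 4.75, 2.28, 2.52, 5.16 and 2.71 CPM in the crypt of mice 1 to 5. In total 122 UMIs were counted in 105 crypt clumps, and none in any mid-villus or tip clump. Pooled over mice, the crypt level was at least 7.35-fold higher than in the mid-villus and at least 2.45-fold higher than at the tip, counted against the limit of 3 UMIs over each zone. Without mouse 4, these bounds were 4.79-fold and 1.67-fold. Ephb3 had too few UMIs to pass the filter on low counts. The exact two-sided permutation test over mice gave p = 0.00794 for both comparisons, the smallest p that 5 mice against 5 allow. This test treats the zones as independent, although they came from the same mice. Within mice, over the 32 patterns of signs that 5 differences can take, the exact permutation p was 0.0625 for both comparisons, again the smallest it can give, so that this test cannot pass 0.05.

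Ephb4, an EphB receptor best known from veins (chr5:137350109-137378669, plus strand), also leaned to the crypt but less evenly. Crypt levels were 6.95, 2.28, 9.45, 35.1 and 10.8 CPM in mice 1 to 5. Mid-villus levels were 0, 0, 0.414, 6.75 and 5.80 CPM. Each mouse was lower in the mid-villus, yet the zones overlapped. The tip was at 0 in mice 1 to 4 and at 25.3 CPM in mouse 5, a value from 2 UMIs in 1 clump. Over all mice, crypt clumps held 721 UMIs, mid-villus clumps 5 and tip clumps 2. Ephb4 failed the filter as well, and the exact permutation test gave p = 0.0397 for the mid-villus and p = 0.373 for the tip against the crypt, or 0.0625 and 0.438 within mice. Without mouse 5, whose 2 UMIs make up the tip level, the tip was at 0 in every mouse and differed from the crypt by -13.4 CPM. The exact permutation p was then 0.0286, the smallest that 4 mice allow. Leaving out the only mouse with tip UMIs fixes that p in advance, so nothing is read from it. Without mouse 1, 2, 3 or 4, the exact permutation p for the tip was 0.371 to 0.914, and without mouse 4 the difference was -1.055 CPM. Without mouse 1, 3, 4 or 5, the p for the mid-villus was 0.0571 to 0.114. Markers of endothelial cells summed to 3.95 to 10.3 CPM in the crypt, with 4 of the 6 genes listed being in the table. In the mid-villus they summed to 4.91 to 11.25 CPM, and at the tip to 0 to 12.6 CPM from 9 UMIs, both overlapping the crypt.

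Mouse 4 stood above the other mice for both Ephb2 and Ephb4 in the crypt. It was also the mouse with the deepest crypt clumps, at a median of 6272 UMIs against 1251 to 3575 in the other mice. Within mouse 4, Ephb2 was 15.0 CPM in pairs and 42.7 CPM in larger clumps of the crypt, whereas Ephb4 was 40.03 and 34.9 CPM. In mouse 1, the other mouse with many clumps of both sizes, Ephb2 was 9.76 CPM in pairs and 17.3 CPM in larger clumps. Whether clump size bears on the level of Ephb2 was not tested.

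Since EphB receptors are known as Wnt targets, promoters were searched for the letters of the core site of the TCF and LEF factors, which carry Wnt signals to DNA. Promoters were taken from RefSeq (GRCm38.p6), from 250 bases before to 50 after the start, and all 7 genes were matched. Searched on both strands, CTTTGA occurred in 16% and CTTTGT in 18.7% of 32851 promoters, and 31.2% held either or both. Among the 7 genes, only the Epha2 window held a match. Efna4, a gene of the family found almost only in the crypt (below), held 2. Stretches upstream of the starts of the crypt-high Ephb2 and Ephb3 are shown without a match, beside the matching stretches of Epha2 and Efna4, with the matched letters in capitals (ACAAAG is CTTTGT on the other strand). These are descriptions of short windows, and binding was not measured.
Ephb2, chr4:136836063-136836142, minus strand: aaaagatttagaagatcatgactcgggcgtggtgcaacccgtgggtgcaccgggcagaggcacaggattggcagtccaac
Ephb3, chr16:21204665-21204744, plus strand: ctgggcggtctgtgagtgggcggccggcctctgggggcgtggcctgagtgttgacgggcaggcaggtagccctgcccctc
Epha2, chr4:141300992-141301037, plus strand: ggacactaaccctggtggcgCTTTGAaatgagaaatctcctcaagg
Efna4, chr3:89338132-89338224, minus strand: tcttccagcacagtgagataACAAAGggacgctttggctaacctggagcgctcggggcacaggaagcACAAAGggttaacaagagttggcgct

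Epha2, an EphA receptor of many epithelia (chr4:141301240-141329384, plus strand), ran the other way. It was lowest in the crypt, at 5.12, 5.71, 10.7, 8.00 and 21.7 CPM in mice 1 to 5. Mid-villus levels were 17.1, 27.0, 25.2, 18.0 and 17.4 CPM. Tip levels were 64.8, 17.6, 62.5, 37.2 and 126.5 CPM. The tip was above the crypt in all 5 mice, and only the tip of mouse 2 fell within the crypt range. Means were 10.2 ± 6.76, 21.0 ± 4.77 and 61.7 ± 41.1 CPM (SD, n = 5). By edgeR, Epha2 rose by 1.39 (SE 0.44) on the log2 scale from crypt to mid-villus (adjusted p = 0.0165), by 1.60 (SE 0.46) from mid-villus to tip (adjusted p = 0.0244) and by 2.99 (SE 0.47) from crypt to tip (adjusted p = 2.06e-05). The change from crypt to tip passed under all 15 alternatives, with adjusted p from 1.29e-10 to 0.00206. Goblet cell markers were also higher at the tip, and Epha2 was 30.2 CPM in single goblet-like cells and 14.8 CPM in enterocyte-like cells, pooled over mice; within enterocyte-like cells it was higher at the tip as well (below). The step to the mid-villus was lost without mouse 1, 2 or 3 (adjusted p = 0.113, 0.0574 and 0.149), and also with DESeq2, DESeq2 size factors, mouse 6 added or Paneth clumps left out (adjusted p = 0.0893, 0.0591, 0.0574 and 0.0541). The step from mid-villus to tip was lost without mouse 1 or 3 (adjusted p = 0.112 and 0.119), in pairs alone (0.123) and without the filter (0.0798).

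Efna1, the ephrin-A ligand that binds Epha2 (chr3:89271733-89281142, minus strand), was likewise highest at the tip but showed no step before it. Crypt levels were 16.5, 6.85, 18.0, 31.3 and 27.1 CPM, and mid-villus levels were 17.1, 7.36, 15.7, 42.8 and 40.6 CPM. Tip levels were 34.9, 120.3, 90.7, 74.4 and 50.6 CPM, all above every crypt value. In each mouse the tip was above both other zones. Means were 19.9 ± 9.59, 24.7 ± 15.9 and 74.2 ± 33.6 CPM (SD, n = 5). Efna1 rose by 2.33 (SE 0.48) from crypt to tip (edgeR, adjusted p = 0.000397) and by 2.19 (SE 0.52) from mid-villus to tip (adjusted p = 0.00856), while the mid-villus differed from the crypt by 0.14 (SE 0.50, adjusted p = 0.861). The change from crypt to tip passed under all 15 alternatives, and that from mid-villus to tip was lost without mouse 2 or 3 (adjusted p = 0.0846 and 0.0807). Single goblet-like cells, whose markers were also higher at the tip, held 8.05 CPM of Efna1 against 19.9 CPM in enterocyte-like cells, pooled over mice.

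**Figure D1:**
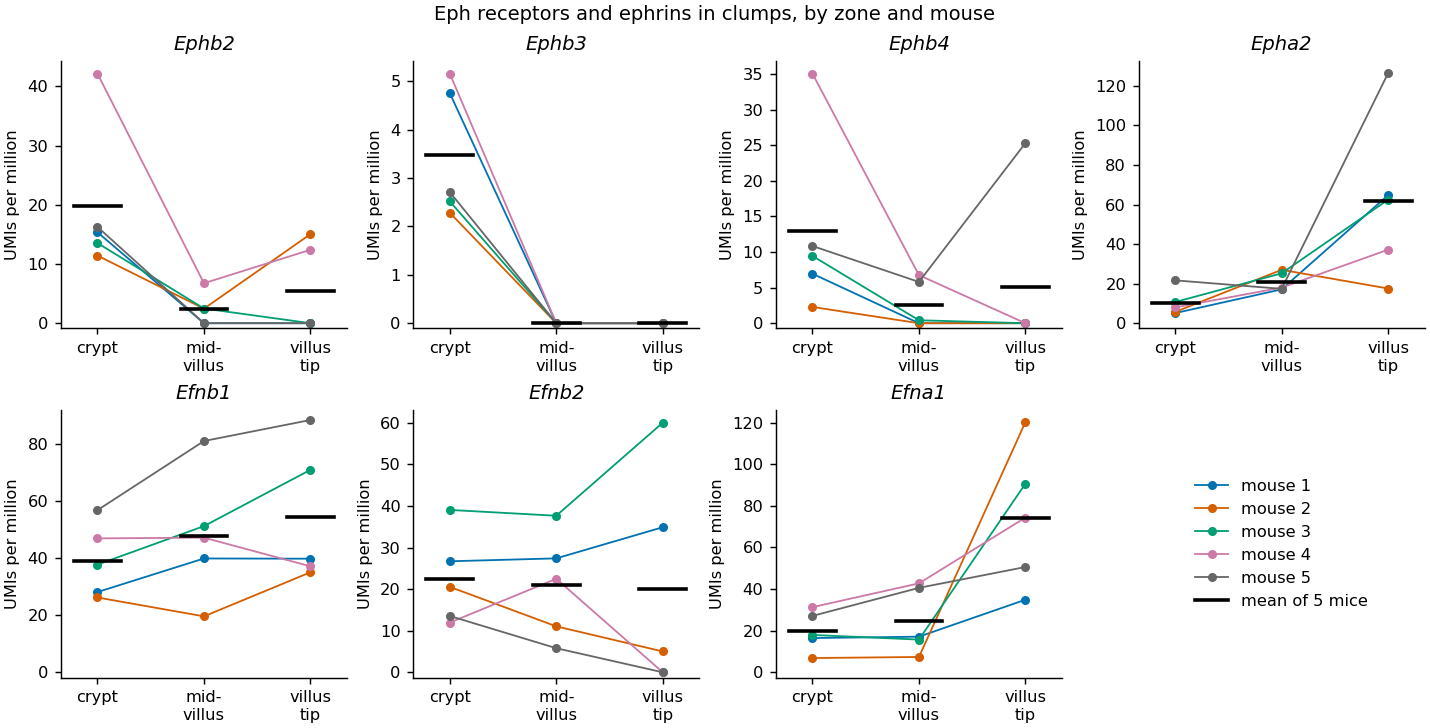
CPM of each of the 7 genes (vertical axes, each from 0) in crypt, mid-villus and villus tip clumps; points joined by a line are 1 mouse and black bars are the mean of 5 mice. Ephb2 and Ephb3 lie highest in the crypt, Epha2 and Efna1 at the tip, and single tip values such as 25.3 CPM of Ephb4 in mouse 5 rest on 2 UMIs.

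The ephrin-B ligands did not pass in any of the 3 zone comparisons. Efnb1 (chrX:99136130-99148991, plus strand), a transmembrane ligand of the EphB receptors, was 28.2, 26.3, 37.8, 47.0 and 56.9 CPM in the crypt, and 39.95, 19.6, 51.3, 47.3 and 81.2 CPM in the mid-villus. Its tip levels were 39.9, 35.1, 71.1, 37.2 and 88.5 CPM. The zones overlapped throughout. The tip was above the crypt in 4 of 5 mice and above the mid-villus in 3 of 5. The log2 difference from crypt to tip was 0.78 (SE 0.41, edgeR, adjusted p = 0.119). With the mouse as a block it was 0.93 and passed (adjusted p = 0.00202), and without mouse 5 it was 0.95 (adjusted p = 0.0277).

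Efnb2, the second ephrin-B ligand (chr8:8617434-8661242, minus strand), had crypt levels of 26.7, 20.6, 39.1, 12.0 and 13.6 CPM. Mid-villus levels were 27.4, 11.1, 37.7, 22.5 and 5.80 CPM, and tip levels were 34.9, 5.01, 60.0, 0 and 0 CPM. The same 2 mice, 1 and 3, were highest in every zone, and the tip values spread more widely than those of the crypt, above and below them. The log2 difference from crypt to tip was 0.67 (SE 0.53, edgeR, adjusted p = 0.303) and that from crypt to mid-villus 0.11 (SE 0.48, adjusted p = 0.884). Neither sign is that of the CPM, whose mean went from 22.4 in the crypt to 20.9 and then 20.0 toward the tip. In each of these comparisons 3 of 5 mice were below their crypt value.

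**Figure D2:**
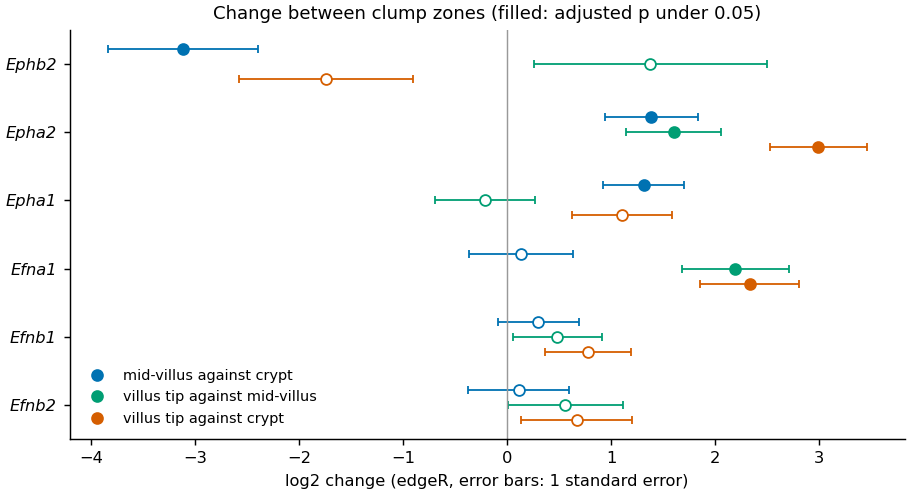
Log2 change between zones (horizontal axis, edgeR, bars 1 standard error) for the 5 of the 7 genes that passed the filter on low counts, and for Epha1; filled points have an adjusted p under 0.05. Epha2 and Efna1 lie to the right for the tip against the crypt, at 2.99 and 2.33, and Ephb2 to the left for the mid-villus, at -3.12.

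Counted together, 5 of the 7 genes passed the filter. From crypt to mid-villus, 1 rose (Epha2) and 1 fell (Ephb2), where 40% of 7380 genes were called. From mid-villus to tip, 2 rose (Epha2 and Efna1) and none fell, where 12.0% were called. From crypt to tip, the same 2 rose and none fell, where 52.8% were called. Calls among all genes leaned down: 1652 rose and 2241 fell from crypt to tip, and 1254 and 2708 with DESeq2 size factors. From crypt to mid-villus, 1210 rose and 1740 fell, against 819 and 2181 with size factors, and from mid-villus to tip, 421 rose and 461 fell, against 242 and 659 with scaling to total UMIs. The median log2 change of all genes from crypt to tip was -0.15, and -0.46 and -0.49 with these scalings. The 3 comparisons share their sums, so the crypt values of 1 mouse enter both comparisons with the crypt. Without the filter, in a fit of 24574 genes, Ephb3 and Ephb4 were lower in the mid-villus (edgeR, adjusted p = 0.00629 and 0.0109), where 15.1% of genes were called, and did not pass at the tip (adjusted p = 0.0641 and 0.0770), where 18.6% were called. Over the 27 exact permutation tests run on 9 genes, the smallest adjusted p was 0.0536.

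Of the 15 other family genes, 14 were in the clump table, and Epha1 alone passed the filter. Epha1, an EphA receptor of epithelia, was 12.1, 7.99, 10.1, 9.47 and 2.71 CPM in the crypt and 13.7, 25.8, 12.8, 51.8 and 5.80 CPM in the mid-villus. Every mouse was higher in the mid-villus, by 1.31 (SE 0.39) on the log2 scale (edgeR, adjusted p = 0.0105; without mouse 4, 0.78, adjusted p = 0.106). At the tip it was 12.4 to 19.9 CPM, and it differed from the crypt by 1.10 (SE 0.48, adjusted p = 0.0595). This passed with the mouse as a block (1.22, adjusted p = 0.0187) and without mouse 4 (1.12, adjusted p = 0.0434). Efna3 and Efna4, ephrin-A ligands named here after their values were seen, were found with 188 and 300 UMIs in crypt clumps and 3 each in mid-villus clumps, and tip clumps held none. Crypt levels of Efna3 were 6.22, 4.57, 2.83, 8.32 and 0 CPM and those of Efna4 were 5.49, 3.43, 3.78, 14.2 and 0 CPM. Mouse 5 alone lacked both, in its shallow sum of 369045 crypt UMIs. Efna1, Efna3 and Efna4 lie side by side on chromosome 3, with 32756 and 10424 bases between them. Among these neighbors, Efna1 was highest at the tip, whereas Efna3 and Efna4 were at least 3.77-fold and 6.02-fold lower there than in the crypt (2.09-fold each without mouse 4). Without the filter, both passed at the tip (edgeR, adjusted p = 0.0476 and 0.0345).

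A finer coordinate, the share of tip landmarks among tip and crypt landmarks in each clump, was cut into 5 equal bins. Ephb2 had its highest level in the first bin, with bin means of 20.7, 4.11, 3.39, 2.53 and 1.45 CPM from crypt to tip. Ephb3 was 3.70 CPM in the first bin, 0.394 in the second, from 1 UMI, and 0 thereafter. Ephb4 was 2.68 to 35.3 CPM in the first bin. Its later bins held at most 2 UMIs in any mouse, which gave up to 20.15 CPM, in the last bin of mouse 5. The mean of Epha2 was higher in each bin than in the one before, at 8.69, 19.04, 22.7, 31.1 and 62.0 CPM. No single mouse was higher in every bin than in the one before, with 15.5, 43.6, 0, 23.5 and 110.8 CPM in mouse 5. The last bin was the highest of the 5 in every mouse but mouse 2, at 21.7 CPM after 34.3. The mean of Efna1 lay between 18.4 and 31.3 CPM over the first 4 bins and at 73.9 ± 59.0 CPM (SD, n = 5) in the last. That bin was uneven, with 4.88, 90.4, 71.9, 161.9 and 40.3 CPM in mice 1 to 5. It was the lowest bin of mouse 1, from 1 UMI, it lay below the second and middle bins of mouse 5, at 54.5 and 78.9 CPM, and in mouse 4 it rests on 3 UMIs in 1 clump. Efnb1, at 37.6 to 52.1 CPM, and Efnb2, at 14.6 to 23.3 CPM, had no bin apart from the rest. The bins share clumps with the zones, and no test was made on them.

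**Figure D3:**
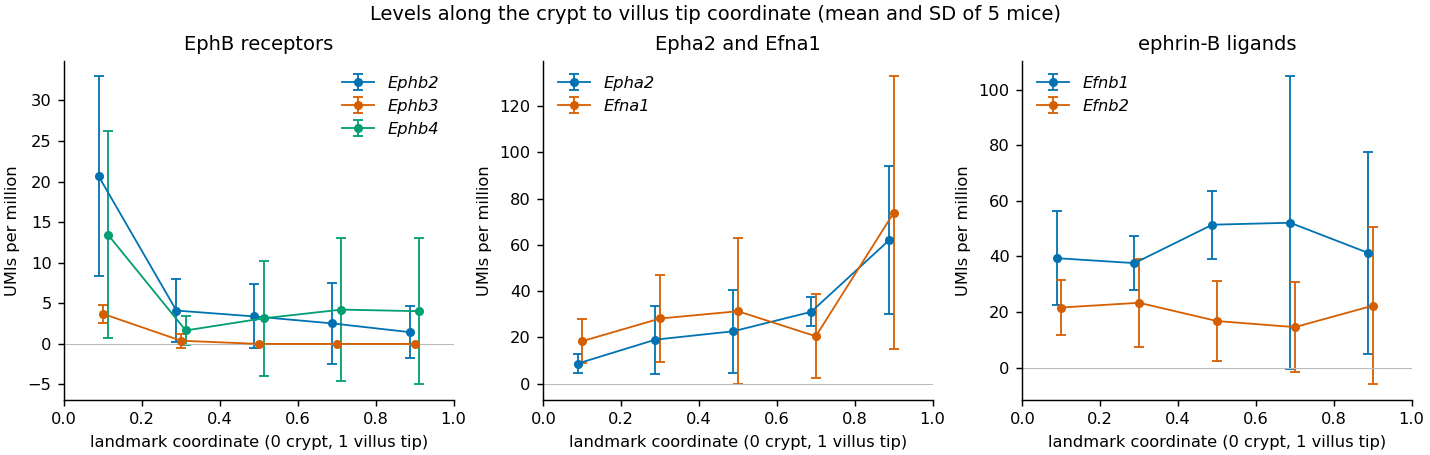
Mean CPM of 5 mice, with SD as bars (vertical axes), in 5 bins of the landmark coordinate from crypt (0) to villus tip (1) for the EphB receptors, for Epha2 with Efna1 and for the ephrin-B ligands. Ephb2 drops from 20.7 to 4.11 CPM between the first bins, Epha2 climbs to 62.0 CPM and the ephrin-B ligands stay level within their SD.

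The EphB receptors and their ligands were next compared as shares. In each sum of mouse and zone, the counts of Ephb2, Ephb3 and Ephb4 were set against those of Efnb1 and Efnb2. Since capture may differ between genes, the shares are read between zones and not as a ratio of amounts. Receptors made up 33.0, 25.5, 24.9, 58.3 and 29.7% of the UMIs of this group in the crypt of mice 1 to 5. In the mid-villus they made up 0, 7.41, 3.15, 16.2 and 6.25%, below every crypt value. At the tip they made up 0, 27.3, 0, 25 and 22.2%, of which those above 0 rest on 6, 1 and 2 receptor UMIs. Tip and crypt overlapped, and in mouse 2 the tip share was above the crypt share. Summed over mice, crypt clumps held 1745 receptor and 1581 ligand UMIs, mid-villus clumps 16 and 345, and tip clumps 9 and 148. In the crypt, 409 of 3529 clumps held both a receptor and a ligand UMI, 920 a receptor and 981 a ligand. In the mid-villus, 5 of 1550 clumps held both, and 1 of 804 at the tip. These counts are not corrected for depth: crypt clumps were deeper, and the clumps with both had medians of 17370 UMIs in the crypt and 15090 in the mid-villus. For Epha1 and Epha2 against Efna1, Efna3 and Efna4, the receptor share ran from 24.5 to 48.0% in the crypt, from 36.4 to 87.8% in the mid-villus and from 22.6 to 73.3% at the tip, with overlap between all zones. Epha2 and Efna1 were found together in 12 of 804 tip clumps, 10 of 1550 mid-villus clumps and 78 of 3529 crypt clumps.

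**Figure D4:**
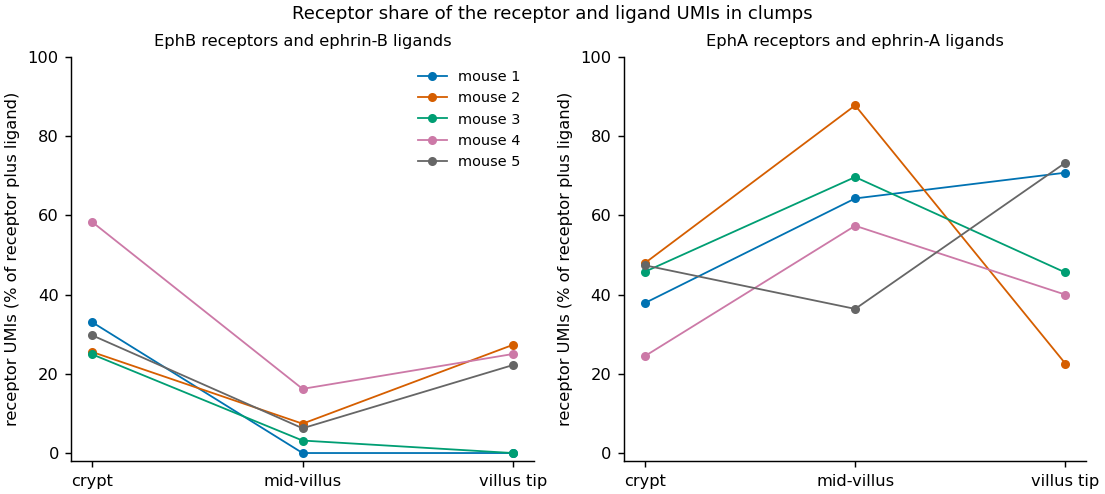
Receptor UMIs as a percent of receptor plus ligand UMIs (vertical axis, 0 to 100) in each zone, with 1 line per mouse, for the EphB and ephrin-B group (left) and the EphA and ephrin-A group (right). On the left, crypt shares of 24.9 to 58.3% lie above mid-villus shares of 0 to 16.2% in every mouse, while tip shares of 0 to 27.3% overlap the crypt. On the right the zones overlap.

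Paneth cells lie at the crypt base among the stem cells, and crypt clumps were split by their Paneth marker UMIs to compare them. Clumps with 1% or more of Paneth marker UMIs numbered 20, 18 and 85 in mice 1, 3 and 4, and clumps with under 0.1% numbered 148 to 1265 in mice 1 to 5. Of the 7 genes, 4 passed the filter and none was called, where 0.977% of 6963 genes were called. Efnb2 was 0, 10.9 and 3.20 CPM in the Paneth-rich sums and 29.8, 20.6, 40.4, 12.3 and 12.0 CPM in the Paneth-poor sums, without overlap, from 4 UMIs in the Paneth-rich sums. Its log2 difference was -1.47 (SE 0.77, edgeR, adjusted p = 0.428). Epha2, which failed the filter, had 0, 0 and 1 UMIs in the Paneth-rich sums against 5.73 to 23.9 CPM in the Paneth-poor ones. Ephb3 had 1, 2 and 5 UMIs, or 4.21, 10.9 and 7.99 CPM, in the Paneth-rich sums, against 2.11 to 5.34 CPM. Its values overlap, and in a fit without the filter it differed by 1.80 (SE 0.85, adjusted p = 0.474). Ephb2 differed by 0.33 (SE 0.75, adjusted p = 0.891) and Efnb1 by -0.35 (SE 0.56, adjusted p = 0.822). Paneth markers made up 163100 to 206600 CPM of the Paneth-rich sums, which leaves other genes a smaller part of the total there. With scaling to total UMIs, Efnb2 and Efnb1 passed as lower (edgeR, -2.59, adjusted p = 0.0232, and -1.42, adjusted p = 0.0432). In that setting 51 genes were called higher and 2535 lower, in place of 59 and 9. The median log2 change of all genes was -1.152 in place of -0.058. How far the Paneth markers bear on this shift was not tested.

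Single cells were grouped by clustering 5199 cells without any Eph or ephrin gene, and clusters were named by marker genes. Clusters led by markers of enterocytes (2525 cells), goblet cells (213), enteroendocrine cells (251), tuft cells (186) and immune cells (1634) were used, and 390 cells were led by hemoglobin together with immunoglobulin genes. No cluster was led by stem or Paneth cell genes. Enteroendocrine- and tuft-like cells were mostly from mouse 2 (219 and 157 cells), and gates on Epcam and CD24 were used by the authors to enrich them.

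Efnb2 alone of the 7 genes passed the filter across the 4 epithelial types. It was 25.1, 26.9, 23.9 and 30.1 CPM in enterocyte-like cells of mice 1 to 4, a narrow range. In goblet-like cells it was 48.8, 65.3, 24.9 and 39.4 CPM, the last from 1 UMI. In tuft-like cells of mice 1 to 3 it was 74.7, 82.0 and 61.6 CPM, from 4, 28 and 1 UMIs, above every enterocyte-like value and overlapping the goblet-like ones. In enteroendocrine-like cells it was 0, 8.93, 0 and 0 CPM, below all enterocyte-like values. Only this last difference passed, at -2.96 (SE 0.79) on the log2 scale (edgeR, adjusted p = 0.00388), and it rests on mouse 2, since the other 3 sums of this type hold at most 28140 UMIs. It passed in all 8 alternatives that could be fitted (adjusted p = 0.000431 to 0.0427), and without mouse 2 Efnb2 failed the filter. Goblet-like cells differed by 0.12 (SE 0.52, adjusted p = 0.900) and tuft-like cells by 0.33 (SE 0.56, adjusted p = 0.774). With scaling to total UMIs, the tuft-like difference was 1.53 and passed (adjusted p = 0.0225), with the median gene shifted by 0.90. Immune-like cells, a type that the CD45 stain of part of the sorts marks, had 0 to 6.57 CPM, and no UMI was found in the hemoglobin-led cells. Among all genes, 33.5% were called for enteroendocrine-like, 22.7% for goblet-like and 26.3% for tuft-like cells. These comparisons share the enterocyte-like sums. With scaling to total UMIs the calls turned from 410 higher and 628 lower to 980 and 263 for enteroendocrine-like cells, from 281 and 421 to 409 and 248 for goblet-like cells, and from 353 and 462 to 768 and 254 for tuft-like cells.

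Efnb1 was 17.7 to 34.9 CPM in enterocyte-like cells and 34.2 and 46.2 CPM, pooled over mice, in goblet- and tuft-like cells, from 17 and 19 UMIs. Enteroendocrine-like cells had 2, 2, 1 and 0 UMIs of it in mice 1 to 4, or 75.4, 4.47, 35.5 and 0 CPM, which lie both above and below all enterocyte-like values. Efna1 was 14.7, 26.2, 18.2 and 23.3 CPM in enterocyte-like cells, with 4 UMIs in goblet-like, 3 in tuft-like and 12 in enteroendocrine-like cells. Epha2 was 20.3, 17.5, 9.07 and 12.2 CPM in enterocyte-like cells and 30.2 and 38.9 CPM, pooled, in goblet- and tuft-like cells, from 15 and 16 UMIs, against 4.90 CPM in immune-like cells. In enteroendocrine-like cells it had 3 UMIs, all of mouse 2, and the enterocyte-like level was 2.53-fold that level with an exact 95% counting interval of 0.844 to 12.4. In a fit without the filter, Epha2 was called lower in enteroendocrine-like cells (edgeR, adjusted p = 0.0209), where 15.9% of 19297 genes were called. Efnb1 was called lower too (adjusted p = 0.0354), at 9.73 CPM pooled over mice against 25.8 in enterocyte-like cells. Its mean over mice ran the other way, at 28.8 against 26.2 CPM, with 2 UMIs among the 26542 of mouse 1 giving the highest value. In the same fit, Efna1 was lower in tuft-like cells (log2 -2.77, SE 0.92, adjusted p = 0.0316), where 10.0% were called.

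EphB receptors were scarce in single cells, which lack a stem or Paneth cluster. Ephb2 was 0, 2.69, 4.78 and 2.64 CPM in enterocyte-like cells. In tuft-like cells it was found in mouse 2 alone, with 12 UMIs in 11 of 157 cells, or 35.2 CPM. Enteroendocrine-like cells had 5 UMIs, in mice 2 and 3. Immune-like cells had 2 UMIs in 1634 cells, at a median of 850.5 UMIs against 2112 in these tuft-like cells. In a fit without the filter, the tuft-like difference was 2.01 (SE 0.75, edgeR, adjusted p = 0.0659). Ephb3 had no UMI among 7786070 enterocyte-like UMIs, 2 in tuft-like cells and 1 each in enteroendocrine- and immune-like cells. The 2 tuft-like UMIs passed as higher in the fit without the filter (edgeR, adjusted p = 0.0356). Ephb4 had 5 UMIs in enterocyte-like cells. Epha4, an EphA receptor named after its values were seen, had 3, 20 and 0 UMIs in tuft-like cells of mice 1 to 3, or 56.0, 58.6 and 0 CPM. In enterocyte-like cells it had 3 UMIs in all. It failed the filter, and without the filter it was higher in tuft-like cells (edgeR, adjusted p = 7.51e-09). The pooled levels of 56.0 and 0.385 CPM gave a ratio of 145, with an exact 95% counting interval of 43.9 to 755. The mouse at 0 had 6 tuft-like cells.

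**Figure D5:**
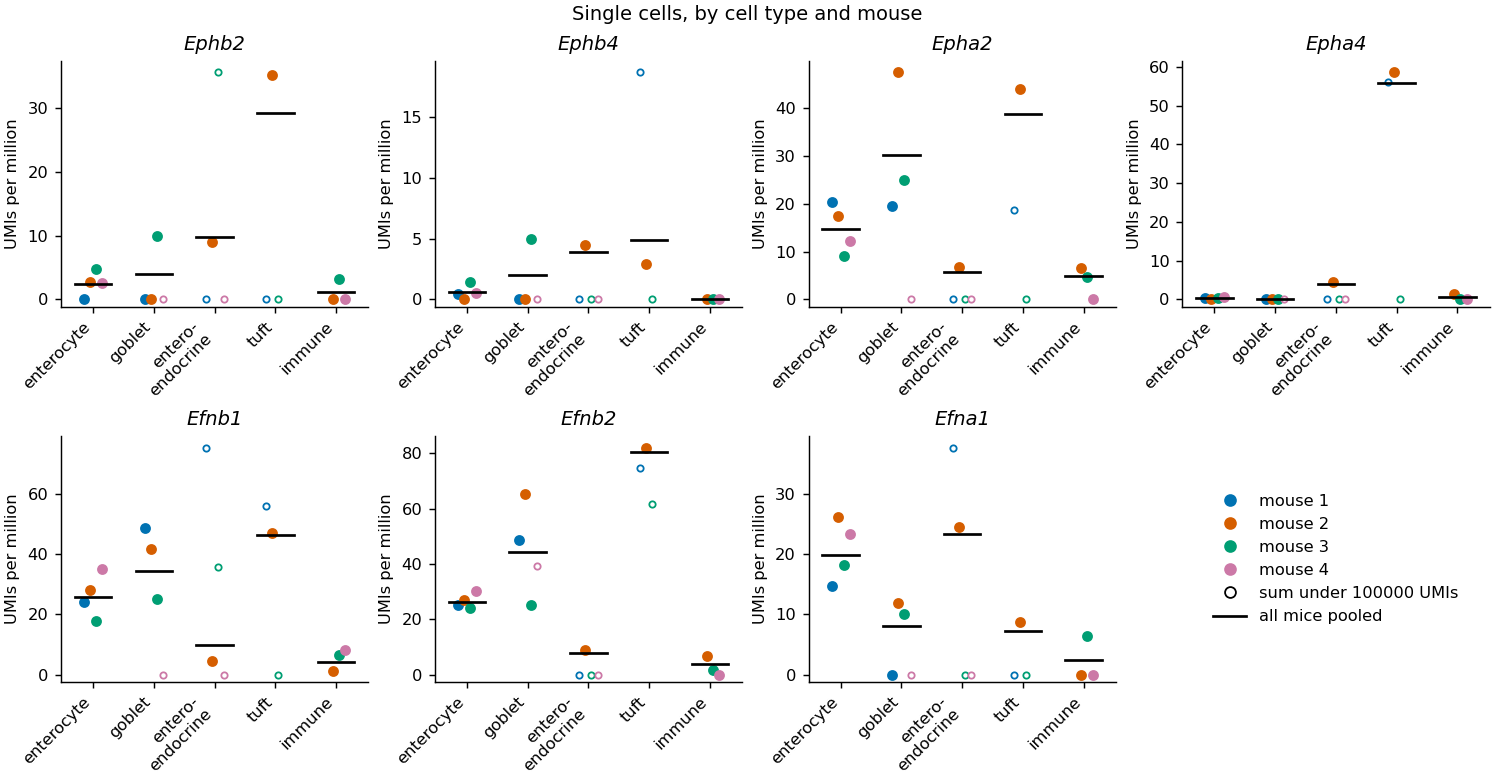
CPM (vertical axes) by cell type for 6 of the 7 genes and Epha4; each point is 1 mouse, open where the summed UMIs are under 100000, and black bars are all mice pooled. Efnb2 has its highest pooled level in tuft-like cells, which lie at 61.6 to 82.0 CPM, and Epha4 has 4.47 CPM or less in every mouse outside them.

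Enterocyte-like cells were placed in the same 3 zones to see whether the pattern of the clumps is met in single cells. Epha2 had 0, 5.06, 0 and 7.19 CPM in crypt-zone cells of mice 1 to 4, from 3 UMIs, and 14.8, 10.8, 9.31 and 14.2 CPM in mid-villus cells. In tip cells it had 21.4, 30.8, 18.9 and 12.0 CPM. Tip and crypt did not overlap, and each mouse was higher at the tip. Epha2 failed the filter, and without it the difference passed (edgeR, adjusted p = 5.03e-07). The pooled tip level was 7.05-fold the crypt level, with an exact 95% counting interval of 2.33 to 34.9. Ephb2 had 0, 20.3, 9.18 and 18.0 CPM in crypt-zone cells, from 14 UMIs, and 0, 0, 2.10 and 0 CPM in tip cells, from 1 UMI, and passed in the same fit as lower at the tip (edgeR, adjusted p = 0.00235). The pooled crypt level was 51.6-fold the tip level, with a counting interval of 7.85 to 2180. In that fit 23.7% of 17420 genes were called. Mouse 1 had only 15512 UMIs in the crypt zone, where its 0 says little.

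With the filter, 3 of the 7 genes were tested in these cells and 1 was called, where 61.9% of 3900 genes were called. Efna1 was called higher at the tip by 1.18 (SE 0.39, edgeR, adjusted p = 0.0116). It was 64.5, 35.4, 14.7 and 25.1 CPM in the crypt zone, the first from 1 UMI, and 14.3, 38.0, 31.5 and 33.6 CPM at the tip. Mice 2, 3 and 4 were higher at the tip, though the zones overlapped, and the pooled levels were 22.2 and 24.1 CPM. The unweighted mean ran the other way, at 34.9 ± 21.4 in the crypt zone and 29.4 ± 10.4 at the tip (SD, n = 4). With scaling to total UMIs the log2 difference was 0.21 (adjusted p = 0.787), and the call was also lost without mouse 3 or 4 (adjusted p = 0.183 and 0.0614). The normalization shifted all genes: 1260 rose and 1153 fell with TMM and 424 and 1749 with total UMIs, at a median log2 change of 0.20 and -0.82. Efnb1 differed by 0.41 (SE 0.36, adjusted p = 0.336) and Efnb2 by 0.05 (SE 0.40, adjusted p = 0.923). With total UMIs these turned to -0.63 (adjusted p = 0.191) and -1.02 (adjusted p = 0.034), the latter passing as lower. Immune markers summed to 451 to 3697 CPM in the crypt-zone cells and to 7.66 to 214 CPM in the tip cells. Enteroendocrine markers summed to 10.8 to 5415 CPM and to 34.8 to 126.7 CPM, and erythroid markers reached 1096 and 28.6 CPM. The part of these cells was not tested.

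Downstream genes were counted from fixed lists. Of 38 partners of Eph signaling, 26 were tested, and from crypt to tip 10 rose and none fell, where 52.8% of all genes were called in either direction. With total UMIs 5 rose and none fell, and with size factors 6 and none. The median of the tested partners was 0.57, against -0.15 for all genes. Those with the smallest p were the kinase Src at 2.07 (adjusted p = 0.000170), the exchange factor Kalrn at 2.61 (adjusted p = 0.000179) and the kinase Rock2 at 1.62 (adjusted p = 0.000182). From crypt to mid-villus 4 of the 26 rose and 1 fell, where 40% of all genes were called, and from mid-villus to tip 2 rose, where 12.0% were called. With the mouse as a block these became 8 and 2 in the mid-villus and 5 higher from there to the tip. With total UMIs they were 4 and 2 in the mid-villus and none from there to the tip. Of 11 Wnt target genes of the crypt, 4 were tested. From crypt to tip, the cell cycle gene Ccnd1 fell by 3.19 on the log2 scale (edgeR, adjusted p = 0.000435). Sox9 differed by -1.24 (adjusted p = 0.139), Lgr5 by 0.15 (adjusted p = 0.856) and Axin2 by -0.12 (adjusted p = 0.879). From crypt to mid-villus, Ccnd1 and Sox9 both fell (-2.80 and -3.55, adjusted p = 0.000195 and 0.000392).

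For the 5 of the 7 genes that passed the filter, the genes whose levels ran most like theirs were sought over the 15 sums of mouse and zone, among 7445 genes, by Pearson's r of log2 CPM plus 5. These sums share mice, depth and zones, and r is given as a description. Ephb2 ran most like Mad2l1 (r = 0.935), a gene of the mitotic checkpoint, and Rnaseh2b (0.911). Epha2 ran most like Asap2 (0.922) and Ambra1 (0.898). Efna1 ran most like Endod1 (0.853) and 2010107G12Rik (0.840), the second of which is itself a tip landmark. Efnb1 ran most like the predicted genes Gm10801 (0.861) and Gm26870 (0.857), and Efnb2 most like Gm10705 (0.915) and Naa30 (0.914).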

How the data were processed

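Single cells and clumps were sequenced by MARS-seq, which counts UMIs near the 3′ end of transcripts. The authors demultiplexed reads with bcl2fastq 2.15.0.4, mapped them to GRCm38 with STAR and deposited whole-number UMI counts per gene and well in 1 table of 45 clump plates and 1 of 44 cell plates. The empty wells are not named in the tables, so background was not subtracted. The 7 genes and all lists were chosen with earlier results of these data known.

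Of the clumps of mice 1 to 5, 5883 had 200 genes or more, no more than 30% of UMIs from mitochondria and over 500 UMIs, and were not among the 2% lowest in landmark share. Each went to the zone whose landmark list (30 crypt, 10 mid-villus or 30 tip genes of the study) correlated best with its landmark values. Cells needed 200 to 7000 UMIs, from 150 up to 1500 genes and no more than 40% of UMIs from mitochondria. They were clustered with scanpy 1.11.5 (2000 variable genes, 25 components, Leiden resolution 0.1). Clusters were named by the marker list that matched most of their 50 leading genes, if 3 or more did. No doublet caller was run. Enterocyte-like cells with at least 5 landmark UMIs were zoned alike.

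Counts were summed per mouse, the replicate, with at least 5 clumps or cells, and tested with edgeR 4.0.16 (quasi-likelihood, TMM, filterByExpr, Benjamini-Hochberg over all genes tested, 0.05). DESeq2 1.42.0, its size factors, no filter, a block for the mouse, mice left out and other clump rules were alternatives, with scaling to total UMIs added after the data were seen. Exact permutation tests over mice, on CPM, covered the 7 genes, Efna3 and Efna4, whether or not they passed the filter; those for Ephb2, Ephb3 and Ephb4 under other settings, and within mice by the signs of the 5 differences, were also added then. Landmark and split markers were left out of counts of called genes. Sums of 1 mouse share the animal, and their deviations from group means correlated at 0.229 to 0.420 between clump zones, at 0.141 to 0.292 between Paneth groups and at 0.076 to 0.313 between cell types, against -0.074 between different mice in clumps. On simulated counts, 69% of 4-fold and 6% of 2-fold changes were recovered for tip against crypt, 48% and 4% for the Paneth split, 85% and 12% for enterocyte zones, and 9% and 0% for tuft-like cells. The 7 genes were always named, other family genes where they passed the filter, and list genes by the 4 smallest p, of which 1 is not reported here.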

Additional observations from a re-analysis of the deposited data

Results flagged for a closer look

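Among 44 groups of 4 to 5 mice with at least 10 UMIs of a gene, 4 had 1 mouse far from the others, where chance flags about 1 group in 20. All were mouse 4. In crypt clumps it had 42.15 CPM of Ephb2 and 35.05 CPM of Ephb4. In the Paneth-poor crypt clumps, which are a subset of the same clumps, it had 44.71 CPM of Ephb2 and 33.97 CPM of Ephb4. Over its 9 plates, Ephb2 was 8.82 to 20.5 CPM on the 3 plates of pairs and 30.5 to 50.8 CPM on the 6 plates of larger clumps, without overlap, and Ephb4 was 35.7 to 44.1 and 25.8 to 44.5 CPM. The cause was not tested.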

How the results depend on the processing

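Counts of called genes moved by over 1.5 times in these cases. With pairs only they were 1479, 533 and 2394 for mid-villus against crypt, tip against mid-villus and tip against crypt, and with clumps thinned to 500 UMIs 1067, 197 and 1350. Leaving out 1 mouse gave 1708 to 3206, 331 to 994 and 2495 to 4086. With the mouse as a block, tip against mid-villus gave 1995. The Paneth split gave 169 with DESeq2, 281 without the filter, 170 with the block, 2586 with total UMIs, 36 with thinned clumps and 54 to 114 with 1 mouse left out. Without the filter, goblet-, enteroendocrine- and tuft-like cells gave 1324, 3067 and 1937 and enterocyte zones 4129; with 1 mouse left out the 3 types gave 191 to 853, 259 to 1299 and 154 to 975. Fewer sums, clumps or UMIs enter the smaller counts by construction; other causes were not tested.

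The block for the mouse, whose pairing comes from the animal, changed the calls at the tip of Ephb2, Epha1 (1.22, adjusted p = 0.0187) and Efnb1 and no other edgeR call on the 7 genes. Exact permutation tests within mice, which 5 mice cannot bring below p = 0.0625, gave 0.0625 for Ephb2 and Ephb4 in the mid-villus and for Ephb3 in both comparisons, where p without pairing was below 0.05 before but not after adjustment, and 0.125 for Ephb2 at the tip.

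In the edgeR and DESeq2 fits, directions turned only for values that had not passed before the setting was changed. Ephb2 in the Paneth split was -0.12 with the block and -0.79 with total UMIs. Efna1 in the mid-villus was -0.13 with size factors, -0.64 in pairs and -0.27 without Paneth clumps, and in the Paneth split 0.01 with size factors and -7.35 to 0.31 with 1 mouse left out. Efnb1 was -0.15 in the mid-villus in pairs and -0.63 in enterocyte zones with total UMIs. Efnb2 in the mid-villus was -0.20 with DESeq2, -0.14 with size factors, -0.51 in pairs, -0.04 without Paneth clumps and -0.10 to 0.32 with 1 mouse left out. It was -0.04 at the tip in pairs and -0.14 in goblet-like cells without the filter. In enterocyte zones Efnb2 was -0.21 with the block and -0.39 to 0.24 with 1 mouse left out. With total UMIs it was -1.02 there and passed as lower (edgeR, adjusted p = 0.034). Epha1 from mid-villus to tip was -0.31 to 0.34. The tip minus crypt difference of Ephb2, tested by exact permutation, turned to 4.923 CPM with thinned clumps (p = 0.897). At the tip, 3 UMIs stand for 1.90 CPM, so low receptors cannot be told from absent ones.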

Other observations

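Mouse 6, whose clumps were sorted above 2n, entered the comparisons above only in the alternative with mouse 6 added. Its 122 crypt, 56 mid-villus and 70 tip clumps held 21.5, 23.6 and 42.2 CPM of Epha2 and 24.0, 15.7 and 56.2 CPM of Efna1. Ephb2 was 8.84, 3.93 and 0 CPM and Ephb3 was 1.26, 0 and 0 CPM, from 7, 1 and 0 and from 1, 0 and 0 UMIs. Efnb1 was 46.7, 51.1 and 63.2 CPM and Efnb2 was 27.8, 31.5 and 35.1 CPM. Ephb4 was 6.32, 0 and 7.03 CPM, from 5, 0 and 1 UMIs.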
